A study of Mus musculus with 6 samples.

Results

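The genes described here encode 51 transcription factors that pattern or specify mesoderm and endoderm, among 22238 protein-coding gene symbols of the annotation. They were listed by name. For each one, every 2 kb tile of the genome that overlapped the gene's NCBIM37 (mm9) bounds or the 5 kb on either side was taken, which gave 719 tiles out of 1327469. No tile lay in the windows of more than 1 of these genes. They fall into 7 families: T-box (11 genes), GATA zinc finger (5), forkhead (6), SOX group F (3), homeobox (14), bHLH (9), and other zinc finger or bZIP genes (3).

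The study examined how mouse embryonic stem cells (ESCs) hold transposable elements in check when DNA methylation is lost, and its ChIP-seq asked where repressive histone marks lie after deletion of the small RNA enzyme Dicer and the maintenance DNA methyltransferase Dnmt1. H3K27me3, H3K9me2 and H3K9me3 were each measured in 1 library of Dicer KO ESCs (genotype Dicer -/-) and 1 library of Dicer KO/Dnmt1 cKO ESCs (genotype Dicer/Dnmt1 -/-), 6 libraries in all. Both groups lack Dicer, so the comparison is of Dnmt1 deletion within Dicer KO cells, and libraries of WT ESCs were not used here. Per the methods, the lines descend from Dnmt1 loxP/loxP ESCs of strain C57BL/6, Dicer was removed with CRISPR/Cas9 in colonies grown from single cells, and Cre induced by tamoxifen (4OHT) deletes Dnmt1. Cells grew in serum and LIF with or without feeder cells, and for ChIP-seq on dishes coated with gelatine. The sample labels name the strain E14 instead, and the labels of these libraries do not give the day after Dnmt1 deletion. Which clone each library came from is not given either, so clone, library and genotype cannot be told apart.

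H3K27me3 is placed by Polycomb repressive complex 2, which in ESCs occupies CG-rich promoters of developmental genes. Many of these promoters also carry H3K4me3, a mark of active promoters, and are therefore called bivalent; they stay silent in pluripotent cells and are switched on or locked down as lineages form. H3K9me2 and H3K9me3 are marks of other repressive machineries and are best known from broad silent domains and from transposable elements. DNA methylation and H3K27me3 tend to occupy different CG-rich sequences, and loss of DNA methylation is known from other systems to let H3K27me3 spread to new sites.

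The libraries held 27162045 H3K27me3 reads in Dicer KO cells and 21280804 in Dicer KO/Dnmt1 cKO cells. The H3K9me2 libraries held 16834940 and 20503709 reads, and the H3K9me3 libraries 18155478 and 18931477, in the same order. A level below is the mean number of reads per tile over a gene divided by the mean over all tiles of that library, so that 1 is the number expected had the reads been spread evenly. A change is log2 of a gene's share of all reads in Dicer KO/Dnmt1 cKO cells over its share in Dicer KO cells, given with its 95% exact binomial (Clopper-Pearson) interval. These intervals cover counting error only and take every read as independent. PCR copies would make them too narrow, and the methods name no removal of copies for ChIP-seq. With a single library for each mark in each genotype, no difference could be checked in replicates or given a p-value. Read numbers are given as counted, in libraries of different depth. An input library was not used here.

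Over Dnmt1 the change was 0.24 (−0.08 to 0.56) for H3K27me3, 0.54 (0.24 to 0.86) for H3K9me2 and −0.13 (−0.41 to 0.15) for H3K9me3, and over Dicer1 it was 0.10 (−0.12 to 0.31), 0.15 (−0.04 to 0.34) and 0.11 (−0.10 to 0.32). Repressive marks over a gene do not show whether it was deleted, so these values do not check the labels.

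Because CG-rich promoters are where Polycomb complexes are known to bind, the promoters of genes at both ends of the H3K27me3 range are shown, together with those of Foxl2 and Msgn1, which had the lowest and the highest H3K27me3 change among the genes with at least 200 reads and a promoter sequence. RefSeq promoters of 300 bases, 250 before and 50 after the start site in the table of build GRCm38.p6, were found for 31 of the 51 genes, and each of the 31 occurred exactly once on its chromosome in NCBIM37, whose coordinates are given. Each runs 5′ to 3′ on the gene's strand, in lower case with every CG in capitals. The motif CG reads the same on both strands and cannot overlap itself. The first 3 genes are among the 5 of the 51 with most H3K27me3, and the last 3 among the 6 with least.
Nkx2-3: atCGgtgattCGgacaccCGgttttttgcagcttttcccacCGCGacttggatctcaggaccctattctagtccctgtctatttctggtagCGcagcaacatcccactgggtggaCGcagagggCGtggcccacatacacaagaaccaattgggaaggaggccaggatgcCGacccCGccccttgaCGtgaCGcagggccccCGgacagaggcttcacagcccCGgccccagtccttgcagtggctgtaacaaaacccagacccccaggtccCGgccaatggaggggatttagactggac
Tbx1: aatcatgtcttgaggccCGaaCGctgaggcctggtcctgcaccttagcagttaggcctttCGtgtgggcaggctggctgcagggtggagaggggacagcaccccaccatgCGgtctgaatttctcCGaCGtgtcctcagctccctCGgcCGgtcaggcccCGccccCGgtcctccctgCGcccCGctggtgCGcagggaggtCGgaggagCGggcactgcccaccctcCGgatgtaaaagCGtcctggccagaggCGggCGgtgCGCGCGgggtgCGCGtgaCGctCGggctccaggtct
Msx1: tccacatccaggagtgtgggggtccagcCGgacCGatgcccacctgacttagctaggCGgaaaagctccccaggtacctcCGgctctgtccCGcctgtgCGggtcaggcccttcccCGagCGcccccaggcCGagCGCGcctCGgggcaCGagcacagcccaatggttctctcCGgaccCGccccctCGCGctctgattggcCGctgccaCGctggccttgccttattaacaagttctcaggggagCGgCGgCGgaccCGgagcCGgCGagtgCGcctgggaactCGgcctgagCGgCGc
Foxl2: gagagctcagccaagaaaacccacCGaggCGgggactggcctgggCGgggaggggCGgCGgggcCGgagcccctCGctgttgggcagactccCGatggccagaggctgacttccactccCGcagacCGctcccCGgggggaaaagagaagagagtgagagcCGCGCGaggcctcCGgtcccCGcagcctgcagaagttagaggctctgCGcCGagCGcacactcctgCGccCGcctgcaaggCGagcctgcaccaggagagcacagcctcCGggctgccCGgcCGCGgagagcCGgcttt
Msgn1: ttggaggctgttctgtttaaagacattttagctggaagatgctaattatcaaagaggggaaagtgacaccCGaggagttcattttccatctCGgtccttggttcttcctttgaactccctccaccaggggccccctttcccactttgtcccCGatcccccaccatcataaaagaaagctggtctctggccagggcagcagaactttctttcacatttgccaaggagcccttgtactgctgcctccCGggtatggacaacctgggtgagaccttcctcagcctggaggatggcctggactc
Tbx18: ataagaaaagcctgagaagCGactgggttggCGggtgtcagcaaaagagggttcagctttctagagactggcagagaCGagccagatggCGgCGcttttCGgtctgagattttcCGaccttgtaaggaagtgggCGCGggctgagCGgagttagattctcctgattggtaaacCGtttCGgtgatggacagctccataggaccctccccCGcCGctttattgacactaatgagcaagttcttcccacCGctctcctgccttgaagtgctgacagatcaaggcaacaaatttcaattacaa
Tbx20: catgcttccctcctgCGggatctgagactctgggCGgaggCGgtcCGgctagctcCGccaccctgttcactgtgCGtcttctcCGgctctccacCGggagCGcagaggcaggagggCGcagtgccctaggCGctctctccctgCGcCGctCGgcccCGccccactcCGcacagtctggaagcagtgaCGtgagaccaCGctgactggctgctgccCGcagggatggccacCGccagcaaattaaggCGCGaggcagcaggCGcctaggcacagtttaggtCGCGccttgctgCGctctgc
Tbx6: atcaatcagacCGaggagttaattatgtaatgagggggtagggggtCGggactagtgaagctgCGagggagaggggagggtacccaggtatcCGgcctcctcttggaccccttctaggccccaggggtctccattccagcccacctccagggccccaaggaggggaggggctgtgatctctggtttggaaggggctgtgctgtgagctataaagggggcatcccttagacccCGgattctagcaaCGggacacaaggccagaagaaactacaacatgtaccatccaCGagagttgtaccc
Nkx2-3 (chr19:43686565-43686864, + strand) has 15 CG, Tbx1 (chr16:18588943-18589242, − strand) has 26 and Msx1 (chr5:38215775-38216074, − strand) has 29. For Tbx1 the table held 2 promoters, and the promoter shown lies upstream of the gene's annotated start at 18588113. The promoter of Foxl2 (chr9:98855776-98856075, + strand) holds 27 and that of Msgn1 (chr12:11215705-11216004, − strand) holds 4. Of the genes with less H3K27me3 than most of the 51, Tbx18 (chr9:87626046-87626345, − strand) has 15, Tbx20 (chr9:24578698-24578997, − strand) has 26 and Tbx6 (chr7:133924747-133925046, + strand) has 7. Among all 32851 promoters of that length in the table, 94.6% held at least 1 CG and 34.6% held 15 or more, and 19 of the 31 promoters of mesoderm and endoderm factors held 15 or more. A high CG count did not go with much H3K27me3 in each case. In the tile at the middle of the promoter, Tbx1 had 179 H3K27me3 reads in Dicer KO cells and 97 in Dicer KO/Dnmt1 cKO cells, whereas Tbx20 with as many CG had 19 and 9. Msgn1, with few CG, had 35 and 48.

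Most of the genes carried far more H3K27me3 than the genome at large. The level was at least 2 times expected in both genotypes for 41 of the 51 genes (8.45% of all protein-coding genes) and above 1 for 49 of them (35.3% of all). The median level of the 51 genes was 3.5 in Dicer KO cells and 2.78 in Dicer KO/Dnmt1 cKO cells, beside 0.733 and 0.760 for all protein-coding genes. Together the 719 tiles held 46094 and 29874 H3K27me3 reads, a change of −0.27 (−0.29 to −0.25). The genes kept nearly the same order in both libraries, with a Pearson r of 0.973 and a Spearman rho of 0.951 across the 51 genes, which are not independent replicates.

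Nkx2-3 (ENSMUSG00000044220.11, chromosome 19 from 43686815 to 43690381), a homeobox factor of gut and spleen mesenchyme, had the most H3K27me3, at 7.59 times expected in Dicer KO cells and 5.72 in Dicer KO/Dnmt1 cKO cells. Next came Pitx1, a factor of hindlimb identity, at 7.50 and 5.53, and Tbx2, which acts in the heart's atrioventricular canal, at 7.44 and 5.21. Tbx1 of the pharyngeal arches stood at 6.91 and 5.14, Msx1 of the limb and craniofacial mesenchyme at 6.61 and 4.94, and Foxa2, a pioneer factor of node and endoderm, at 5.63 and 4.44. All 6 genes lay above the 99th percentile of protein-coding genes in both libraries, and all 6 were lower in the Dicer KO/Dnmt1 cKO.

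**Figure D1:**
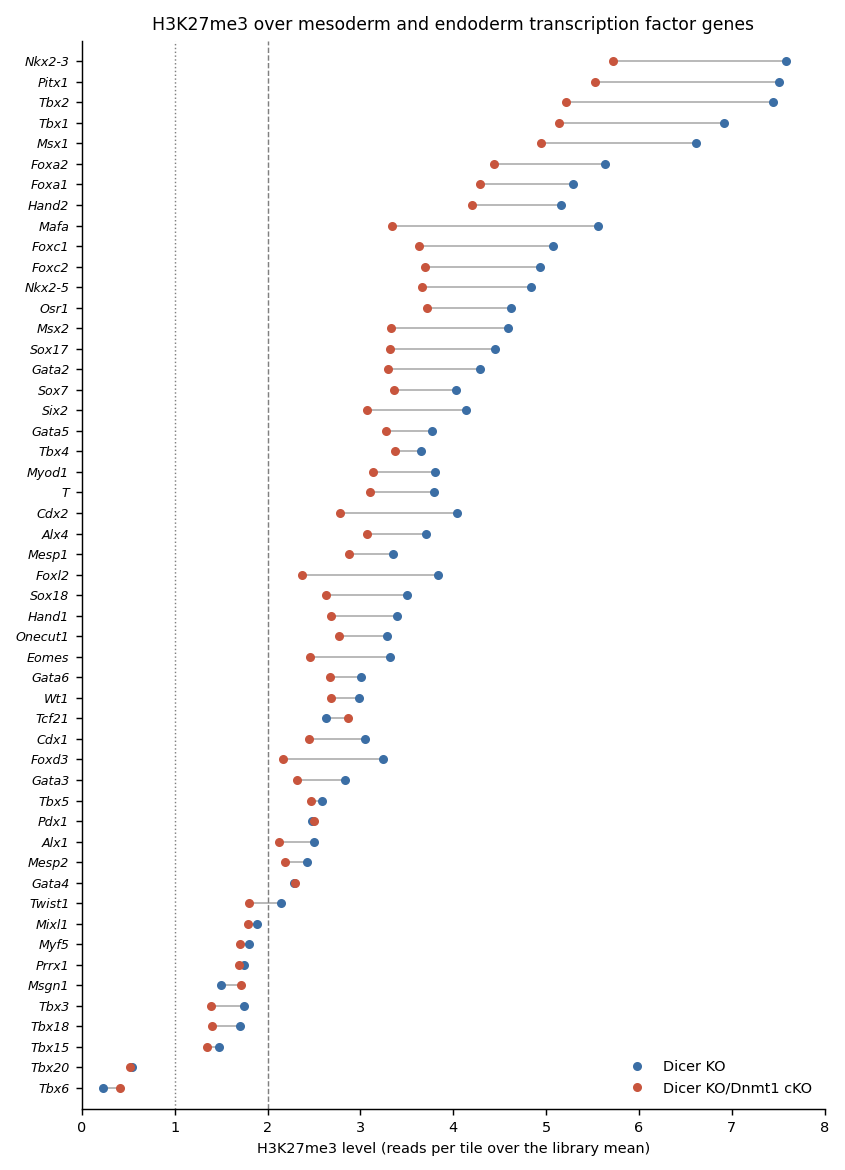
H3K27me3 level of each of the 51 genes, as reads per tile over the mean of the library, in Dicer KO cells (blue) and Dicer KO/Dnmt1 cKO cells (red), 1 library each, ordered by the mean of both. The dotted and dashed lines mark 1 and 2 times expected; in 41 genes both points lie at or beyond 2, and the distance between the points is greatest among the genes with most H3K27me3.

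The 6 genes with least H3K27me3 included 5 of the T-box family. Tbx6 (ENSMUSG00000030699.10, chromosome 7 from 133924997 to 133929074), which commits cells to paraxial mesoderm, had 42 reads in Dicer KO cells and 59 in Dicer KO/Dnmt1 cKO cells, levels of 0.228 and 0.409, and no tile of its window reached 2 times expected. Its change of 0.84 (0.25 to 1.45) rests on those 101 reads, and the gene was left out of the counts of changes below, which need 200 reads in both libraries together. Tbx20, a cardiac factor, was at 0.538 and 0.515 over a window of 31 tiles, but its fullest tile reached 3.08 and 2.00. Tbx15 (1.47 and 1.35), Tbx18 (1.71 and 1.40) and Tbx3 (1.75 and 1.39) likewise had H3K27me3 in part of their windows, with fullest tiles at 4.79, 4.01 and 4.20 in the Dicer KO. The fullest tile of Tbx3 lay 18 kb downstream of its start-site tile, past the end of the gene. The start-site tile of Tbx3 was at 0.195 and 0.187. Tbx3 is a T-box factor that naive ESCs are known to express. Msgn1, a bHLH factor of presomitic mesoderm, stood at 1.5 and 1.71.

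By family, forkhead genes had the highest median level, 5.00 in Dicer KO cells and 3.67 in Dicer KO/Dnmt1 cKO cells, followed by the 3 other zinc finger or bZIP genes (Osr1, Mafa and Wt1) with 4.62 and 3.34. SOX group F, the endoderm and endothelial factors Sox7, Sox17 and Sox18, had 4.03 and 3.32, and homeobox genes had 3.87 and 2.92. GATA factors, which serve blood, heart and primitive endoderm, had 3.0 and 2.68. The bHLH genes had 2.63 and 2.68, and the T-box genes 2.58 and 2.45. The T-box family spanned nearly the whole range, from Tbx6 to Tbx2, whereas the 6 forkhead genes lay between 3.24 (Foxd3) and 5.63 (Foxa2) in the Dicer KO.

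H3K27me3 was highest in the tile of the start site and the next tile downstream. The median over the 51 genes was 1.66 at 20 kb upstream in the Dicer KO, 5.23 in the tile of the start site and 5.33 in the next tile downstream, and it was 1.56 at 20 kb downstream. In the Dicer KO/Dnmt1 cKO the same 4 positions had 1.62, 3.62, 4.30 and 1.56. The libraries thus differed at the start sites and hardly at 20 kb. Other genes with a mean H3K27me3 level between 2 and 8 had 3.71 and 2.99 in the start-site tile and 3.62 and 3.12 in the next. Tiles of 2 kb cannot show a dip at the start site that is narrower than a tile.

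**Figure D2:**
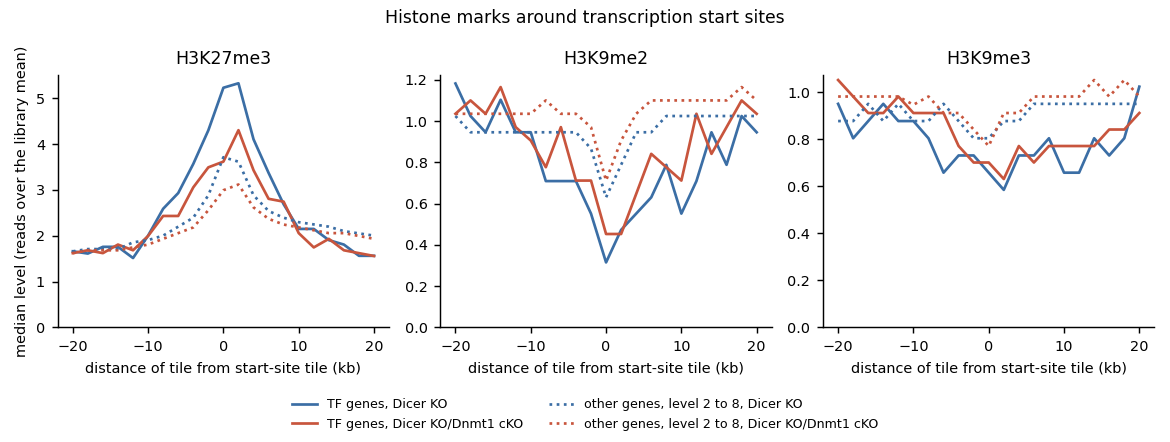
Median level of each mark (reads over the library mean) in 2 kb tiles from 20 kb upstream to 20 kb downstream of the start site, for the 51 genes (solid) and for other protein-coding genes with a mean H3K27me3 level of 2 to 8 (dotted), in Dicer KO cells (blue) and Dicer KO/Dnmt1 cKO cells (red). H3K27me3 is highest in the start-site tile or the next one downstream, and is lower in both tiles in the Dicer KO/Dnmt1 cKO for both sets of genes, while H3K9me2 dips there.

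Runs of tiles at 2 times expected or more around the fullest tile, a mean over both genotypes, were present for 50 genes and spanned a median of 19 kb. No share of all protein-coding genes is given for such runs, so their number and width do not set the factors apart. Even Tbx20, at 0.538 and 0.515 over its whole window, had a run of 4 kb. The runs were widest at Alx4, a homeobox gene of limb and craniofacial mesenchyme (72 kb), Tbx1 (70 kb) and Pitx1 (68 kb). The runs at Tbx1 and Pitx1 held the whole gene and reached beyond it, and the run at Alx4 reached from upstream into the gene. Over all these runs the median change was −0.29. Alx4 is named because of its values, outside the naming rule.

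Sequence composition was shared beyond what the choice of genes used. The tiles over the 51 genes had a median GC content of 49.5%, beside 44.6% for all protein-coding genes, and the start-site tile held a median of 88 CG, beside 52. In 43 of the 51 genes (84.3%) the start-site tile held 50 CG or more, as it did in 52.0% of all protein-coding genes. Among genes with such tiles the median H3K27me3 level of the tile was 5.72 and 3.62 for mesoderm and endoderm factors, and 0.342 and 0.374 for all protein-coding genes. With CG-rich start sites in both sets, the levels thus lay far apart. In the 8 factors with fewer than 50 CG the median of the tile was 2.88 and 3.56, with 5 of the 8 higher and 3 (Myod1, Tbx5 and Mesp2) lower in the Dicer KO/Dnmt1 cKO, and in all such genes it was 0.977 and 0.998. Across the 51 genes the CG count and the H3K27me3 level of the start-site tile had a Spearman rho of 0.270 (Pearson r 0.156).

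Upon Dnmt1 deletion, H3K27me3 over these genes was mostly lower. Among the 50 genes with at least 200 reads the median change was −0.29, and 46 were lower and 4 higher, beside a median of 0.03, 7366 lower and 9584 higher among the 16950 protein-coding genes with as many reads. The counting interval lay below 0 for 38 of the 50 genes (12.9% of all protein-coding genes with as many reads) and above 0 for 0 of them (17.8% of all such genes). Few changes were large. With gene bounds only, 6 genes were at least 1.5-fold lower, a window for which no share of all genes is given. With 2 kb on either side of the start site the median change was −0.46. In that window the difference from other genes of the same H3K27me3 level was −0.01. Over the whole window, 2 genes (0.537% of all such genes) were at least 1.5-fold lower and 0 (1.09%) at least 1.5-fold higher.

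Those 2 genes were Mafa and Foxl2. Mafa (ENSMUSG00000047591.4, chromosome 15 from 75577273 to 75578352), which drives insulin transcription in beta cells, had 682 H3K27me3 reads in Dicer KO cells and 321 in Dicer KO/Dnmt1 cKO cells, levels of 5.55 and 3.34 and a change of −0.74 (−0.93 to −0.54). Foxl2 (ENSMUSG00000050397.2, chromosome 9 from 98856026 to 98858545), a factor of ovarian granulosa cells, had 550 and 266 reads, levels of 3.84 and 2.37 and a change of −0.70 (−0.91 to −0.48). The tile at the Foxl2 promoter printed earlier held 68 and 17 reads. Next were Foxd3 of the neural crest and epiblast, with 530 and 278 reads and a change of −0.58 (−0.79 to −0.37), Cdx2 of trophectoderm and hindgut, with 743 and 401 reads (−0.54, −0.72 to −0.36), and Tbx2, with 1674 and 919 reads (−0.51, −0.63 to −0.40). All 5 intervals lay below 0. Which genes fell most depended on the window. Over the run of tiles around the fullest tile, a window picked from the same reads, Mafa had −0.41 (−0.53 to −0.30) and Foxl2 −0.52 (−0.72 to −0.33), less than 1.5-fold, and the lowest were Tbx18 (−0.81, −1.18 to −0.45) and Foxd3 (−0.71, −0.97 to −0.46). With the whole window, of the other genes in the same narrow range of H3K27me3 level (4 ranges to a doubling), 0 of 110 had a lower change than Mafa and 0 of 289 a lower one than Foxl2, while 16 of 554 lay below Foxd3, 8 of 156 below Cdx2 and 6 of 21 below Tbx2. The 5 genes were picked for their low changes, so these counts do not test how unusual they are.

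The 4 genes with a change above 0 all had intervals that included 0. Msgn1 (ENSMUSG00000047002.1, chromosome 12 from 11215188 to 11215754) had 184 and 165 reads, a change of 0.19 (−0.12 to 0.51), and Tcf21, a factor of epicardium and visceral mesenchyme, had 377 and 322 reads (0.12, −0.09 to 0.34). Pdx1 of the pancreas was at 0.02 (−0.18 to 0.21), and Gata4 of heart and primitive endoderm was at 0.01 (−0.09 to 0.10) with 1964 and 1546 reads. Over the runs of tiles, Msgn1 had 75 and 83 reads (0.50, 0.03 to 0.97) and Gata4 696 and 478 (−0.19, −0.36 to −0.02), and the intervals of Tcf21 and Pdx1 included 0. Gata4 and Gata6, both of the primitive endoderm, had levels of 2.29 and 2.30 and of 3.0 and 2.68, and the change over Gata6 was −0.17 (−0.28 to −0.05).

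The forkhead family, first by level, also had the lowest median change. Its value was −0.45, with the interval below 0 in 6 of 6, SOX group F genes −0.41, in 3 of 3, and homeobox genes −0.36, in 11 of 14. Other zinc finger or bZIP genes had −0.31, in 3 of 3, and T-box genes −0.29, in 8 of the 10 with enough reads. The bHLH genes had −0.22, in 3 of 9, and the GATA genes −0.20, in 4 of 5. Of all protein-coding genes with 200 reads, 12.9% had an interval below 0. Of genes that shared no tile with the 51, 47.0% had one at 2 to 4 times expected and 87.5% at 4 to 8. The families also differed in level, so these counts do not set a family apart. Across the 51 genes, mean level and change had a Spearman rho of −0.667 (Pearson r −0.602), and GC content and change had −0.602 (r −0.392). Level, GC content and change come from the same tiles and the same pair of libraries, so these values describe the libraries and do not separate the measures.

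Other genes at 2 to 8 times expected were also lower, by less than the factors at 2 to 4 times. Of the genes that shared no tile with the 51, those at 4 to 8 times expected had a median change of −0.38 (200 genes, 87.5% with an interval below 0), and the 13 mesoderm and endoderm factors in that range had −0.41 (13 of 13). At 2 to 4 times expected the medians were −0.14 for 1891 other genes (47.0% below 0) and −0.28 for 28 factors (22 of 28), and at 1 to 2 times they were −0.02 for 6221 other genes (13.9%) and −0.10 for 8 factors (3 of 8). Other genes below 1 had 0.15. At 8 times expected and above there were 0 factors and 17 other genes with a median change of 0.55 (82.4% with an interval above 0), whose median H3K9me3 level in the Dicer KO was 176. The factors at 2 to 4 times expected sat higher within that range than the other genes, with a median level of 3.37 against 2.52 in the Dicer KO. Subtracting from each factor the median of the other genes in its range left a median of −0.10, which became −0.03 in the narrow ranges and −0.01 when 2 kb on either side of the start site was used in place of the whole window.

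**Figure D3:**
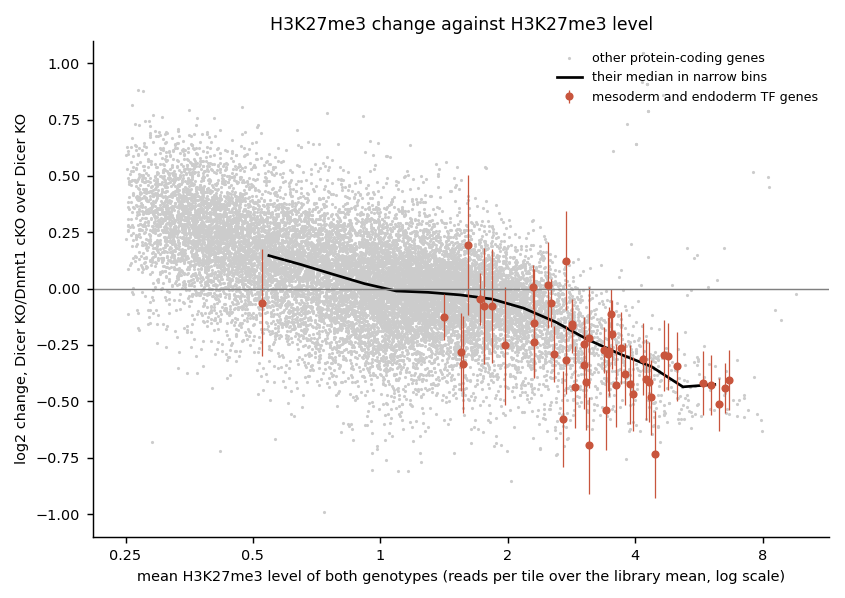
Log2 change of H3K27me3 against the mean H3K27me3 level of both genotypes (log scale), for the mesoderm and endoderm factors with at least 200 reads (red, with 95% counting intervals) and other protein-coding genes with as many reads (grey, those with levels of 0.25 to 10 drawn). The black line is the median of the other genes in narrow ranges of level with at least 20 genes; it runs from above 0 at low level to −0.43 near 6, and the red points scatter around its lower part.

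In the narrow ranges the factors and the other genes can be set side by side. Between 2.83 and 3.36 times expected, 8 factors had a median of −0.29 and 289 other genes −0.23, and from 3.36 to 4 it was −0.29 for 11 factors and −0.29 for 156 other genes. From 4 to 4.76 the factors were lower (−0.41 for 6, −0.34 for 110 others), from 4.76 to 5.66 they were higher (−0.32 for 2, −0.44 for 55 others), and from 5.66 to 6.73 the values were −0.43 for 5 factors and −0.43 for 21 other genes. At each range below 2.83 that held factors with at least 200 reads, the factors lay below the others. Tbx6, left out for its few reads, had a change of 0.84 at a mean level of 0.318. The gap was widest for the single factor between 0.5 and 0.595 (−0.06, with 0.15 for 1081 others) and the 3 factors between 1.41 and 1.68 (−0.28, with −0.03 for 1489 others). These gaps at low level rest on few genes.

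Tiles of the whole genome differed by level too. Those at 4 to 8 times expected held 2.49% of the H3K27me3 reads in Dicer KO cells and 1.90% in Dicer KO/Dnmt1 cKO cells, those at 2 to 4 held 19.6% and 18.7%, and those below 1 held 27.2% and 28.8%. The 402 tiles at 8 times expected and above went the other way, from 0.888% to 0.980% (0.14, 0.13 to 0.15); they are 0.0303% of all tiles and also held 5.20% of the H3K9me3 reads in the Dicer KO. In the windows of the 51 genes, tiles at 4 to 8 times expected changed by −0.42 (−0.45 to −0.38), the 15 tiles at 8 and above by −0.50 (−0.58 to −0.41), and tiles below 1 by 0.06 (−0.05 to 0.17). The genome-wide shift of reads from tiles at 2 to 8 times expected to those below 1 and those at 8 and above was present beside the result, and whether it belongs to the libraries or to the cells cannot be told apart with 1 library each. The GC content of the genes at 4 to 8 times expected had a median of 52.1% for the factors and 50.4% for the other genes. With ranges of level combined with GC content, the median difference of the factors from the other genes was −0.07, and −0.03 with narrow ranges of level.

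H3K9me2 and H3K9me3 were low over these genes, as over most genes. The H3K9me2 level was below 1 in both genotypes for 31 of the 51 genes (62.1% of all protein-coding genes), and the H3K9me3 level for 37 (68.6% of all). The median levels were 0.741 without and 0.819 with Dnmt1 deletion for H3K9me2, and 0.769 and 0.754 for H3K9me3, and no gene reached 2 times expected in either mark. H3K9me2 dipped around the start site, with a median in the start-site tile of 0.315 and 0.453 over the 51 genes and 0.631 and 0.712 over other genes of level 2 to 8. Over all other protein-coding genes it was 0.394 and 0.453. By the mean of both genotypes the most H3K9me2 was over Myf5, a myogenic factor, with levels of 1.31 and 1.38, and the least over Six2, a factor of nephron progenitors.

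Upon Dnmt1 deletion, changes of H3K9me2 were small over the 28 genes with at least 200 reads. Their median was 0.10, beside 0.09 over all 15499 such protein-coding genes. The minimum of reads left out 23 of the genes, among them all 6 forkhead genes (median 0.29), and without it the medians were 0.18 over the 51 genes and 0.10 over all protein-coding genes. Of the genes left out, Foxd3 had 0.69 (0.07 to 1.34), Mesp1 0.67 (0.05 to 1.31) and Foxa2 0.61 (0.09 to 1.14), each past 1.5-fold. The intervals of the rest of these genes included 0. With 200 reads, the interval was above 0 for 4 of 28 (20.3% of all) and below 0 for 0 (3.77% of all). At least 1.5-fold higher were 0 (1.12% of all), and at least 1.5-fold lower were 0 (0.0387% of all). The highest values of the 28 were those of Pitx1, from 102 to 162 reads (0.38, 0.02 to 0.75), Hand2 of heart and limb, from 84 to 132 (0.37, −0.04 to 0.78), and Tbx4 of the hindlimb, from 269 to 414 (0.34, 0.11 to 0.56). Sox7 followed at 0.33 (0.004 to 0.67) and Myod1, the skeletal muscle factor, at 0.31 (−0.08 to 0.70). Tbx5 of forelimb and heart, at 0.25 (0.07 to 0.45), was the other gene whose interval lay above 0, and is also named because of its values. The lowest values of the 28 were those of Gata2 (−0.22, −0.60 to 0.16), Mesp2 of the somites (−0.17, −0.58 to 0.24), Alx1 (−0.12, −0.40 to 0.15), Tbx15 (−0.10, −0.22 to 0.03) and Onecut1 (−0.08, −0.31 to 0.16), and each of these intervals included 0.

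Changes of H3K9me3 were also small over the 22 genes with at least 200 reads. Their median was 0.08, beside 0.03 over all 15665 such protein-coding genes. At 2 to 4 times expected H3K27me3 it was 0.086 for 15 factors and 0.094 for 1501 other genes. At 1 to 2 it was 0.04 for 4 factors and 0.04 for 5049 others, and at 4 to 8 it was 0.23 for 2 factors and 0.03 for 96 others. The single factor below 1 had −0.08, with 0.01 for 8965 others. Without the minimum the median was 0.03 over the 51 genes and 0.02 over all, and the 6 forkhead genes, again all left out, had −0.32. Of the genes left out, Mafa had −0.67 (−1.30 to −0.06), past 1.5-fold, Msx1 0.50 (0.05 to 0.95) and Myod1 0.50 (0.06 to 0.96). The intervals of the rest of these genes included 0. With 200 reads, the interval lay above 0 for 2 of 22 (8.04% of all), Gata6 (267 to 336 reads, 0.27, 0.04 to 0.51) and the kidney and gonad factor Wt1 (419 to 513 reads, 0.23, 0.04 to 0.42). It lay below 0 for 1 of 22 (3.88% of all), Gata2, a factor of blood stem cells, with 149 and 120 reads (−0.37, −0.73 to −0.02). At least 1.5-fold lower were 0 (0.179% of all) and at least 1.5-fold higher were 0 (0.0766% of all). With so few genes past 0, these counts do not set the factors apart from all genes in either H3K9 mark. Pitx1 (0.27, −0.04 to 0.58) lay between Gata6 and Wt1 in value, and Osr1 of intermediate mesoderm (0.20, −0.17 to 0.57) and Onecut1 of liver and pancreas (0.18, −0.08 to 0.43) came after Wt1. Myf5 (−0.20, −0.57 to 0.17), Sox17 (−0.16, −0.57 to 0.25), Cdx1 (−0.10, −0.41 to 0.20) and Tbx20 (−0.08, −0.31 to 0.15) had the next lowest of the 22.

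**Figure D4:**
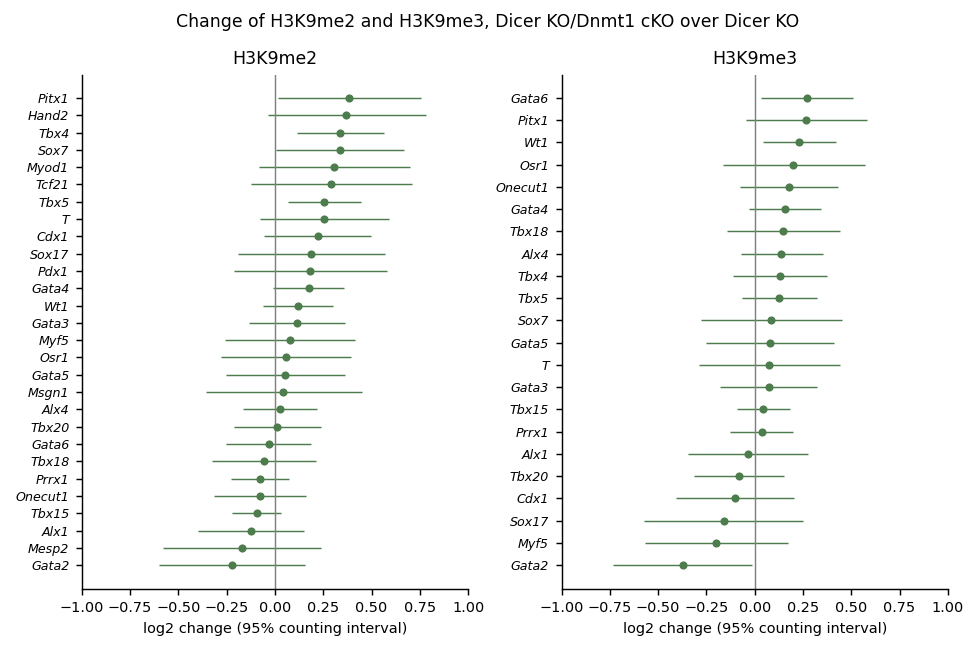
Log2 change of H3K9me2 (28 genes) and H3K9me3 (22 genes) for the mesoderm and endoderm factors with at least 200 reads of the mark in both libraries together, with 95% counting intervals. Intervals exclude 0 for Pitx1, Tbx4, Sox7 and Tbx5 in H3K9me2 and for Gata6, Wt1 and Gata2 in H3K9me3, and the other intervals cross 0.

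Of the 7 genes with 200 reads and an H3K9me2 or H3K9me3 interval that excluded 0, 6 also had an H3K27me3 interval below 0, as had 38 of 50 overall. These were Pitx1 (H3K27me3 −0.44, −0.55 to −0.33), Tbx4 (−0.11, −0.22 to −0.002) and Sox7 (−0.26, −0.42 to −0.10) with more H3K9me2, Gata6 and Wt1 (−0.16, −0.26 to −0.05) with more H3K9me3, and Gata2 (−0.38, −0.52 to −0.24) with less H3K9me3. Tbx5 was the exception (−0.06, −0.17 to 0.04). Summed over the 719 tiles, H3K9me2 went from 7961 to 10333 reads (0.09, 0.05 to 0.13) and H3K9me3 from 8162 to 8845 (0.06, 0.01 to 0.10), against −0.27 for H3K27me3. By H3K27me3 level, H3K9me2 in these tiles changed by 0.16 (0.09 to 0.24) at 2 to 4 times expected and 0.23 (0.13 to 0.34) at 4 to 8. In all tiles of those levels it changed by −0.0002 and 0.12. In the windows' tiles below 1, at 1 to 2 and at 8 and above, it changed by 0.01, −0.01 and 0.001. Among genes with 200 H3K9me2 reads at 2 to 4 times expected H3K27me3, the median H3K9me2 change was 0.17 for 19 factors and 0.08 for 1522 other genes. At 4 to 8 it was 0.37 for 3 factors and 0.17 for 79 others. At 1 to 2 the factors were lower (−0.06 for 5, 0.02 for 5299 others), as was the single factor below 1 (0.01, with 0.14 for 8540 others).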

How the data were processed

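ChIP-seq of H3K27me3, H3K9me2 and H3K9me3 was made with antibodies from Active Motif, Abcam and Active Motif, in that order. The authors used Trim Galore for trimming and Bowtie2 for alignment to NCBIM37 (Ensembl v67), discarded reads with MAPQ below 20 and quantified genome tiles. The values deposited by the authors are log2 ratios of the reads in a tile to those of an even spread, in a table named for counts. The methods state 1 kb tiles, whereas the table has 2 kb tiles, and its chromosome lengths equalled those of the reference for all 22 chromosomes. Of 25 value columns, 6 matched the sample labels and 19 were not used.

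Antilogs of the values were whole multiples of 1 step per library, within 0.1 reads for all but 1 tile in each H3K9me3 library, and tiles at 0.9 of a step were taken as empty. Reads were summed per gene with scipy 1.17.1, pandas 2.3.3 and numpy 2.4.6 in Python 3.11.15, and plotted with matplotlib 3.10.9. A GENCODE annotation of NCBIM37 supplied protein-coding genes, and for a symbol with several entries, such as Alx1, the longest was kept. The intervals and counts were tested on simulated data. The simulated reads were drawn independently, without PCR copies or other differences between libraries. They therefore check the calculation and not whether the intervals are wide enough for these libraries.

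The members and lists were chosen with earlier results of these data known. Genes were named by rule: for each mark the 5 with the largest rise and the 5 with the largest fall among those with at least 200 reads (H3K27me3 was higher in 4 only), the 6 with most and the 6 with least H3K27me3, Dnmt1 and Dicer1, and from each other list the genes with most and least H3K27me3. Outside the rule, Alx4, Tbx5, Six2, Mesp1 and Fgfr2 are named because of their values. No test was possible, as no library was replicated. Alternatives changed the scaling, the window, the minimum of reads, the fold and the ranges of level.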

Additional observations from a re-analysis of the deposited data

How the results depend on the processing

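No paired analysis was possible because there is a single library of every mark in either genotype. The median H3K27me3 change of −0.29 lay between −0.46 and −0.24 over 9 alternatives, that of H3K9me2 between 0.03 and 0.18 and that of H3K9me3 between 0.03 and 0.15 over 8 alternatives each, and none changed sign. Genes at least 2 times expected numbered 41 to 48 over 3 alternatives, for which no share of all protein-coding genes is given. The number of genes with lower H3K27me3 depended on the fold and the window: it was 2 at 1.5-fold, 21 at a log2 change of 0.32, 0 at 2-fold and 6 with gene bounds only. The share of all protein-coding genes is given for 1.5-fold over the whole window only (0.537%), so the other counts do not set the factors apart. With no minimum of reads and a pseudocount of 1, 1 gene (Tbx6) was higher by 1.5-fold, in place of 0. The difference from other genes of the same H3K27me3 level lay between −0.13 and −0.01 over 7 alternatives. Alternatives with no minimum of reads for the medians, and ranges of level combined with GC content or with tiles per gene, were chosen after seeing the data. Around the start site no gene had 200 reads of H3K9me2 or H3K9me3, so that window gave no value for these marks. Few reads limit single genes: 50 had 200 reads of H3K27me3, 28 of H3K9me2 and 22 of H3K9me3.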

Other observations

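Other lists of developmental regulators differed in level and in change. Most and least are by the mean of both genotypes. The 11 neuroectoderm transcription factors analysed (Sox1 was not analysed here) were all at least 2 times expected in both genotypes, as were 8.45% of all protein-coding genes. Their median H3K27me3 level was 4.73 in Dicer KO cells and 3.73 in Dicer KO/Dnmt1 cKO cells, and their median change −0.50. The interval lay below 0 in 10 of 11. For this count and those below, the shares of all protein-coding genes with 200 reads were 12.9% below 0 and 17.8% above 0. Neurog1, a proneural factor, had the most (8.63 and 5.81, change −0.57, −0.71 to −0.43) and Pax6 the least (2.79 and 2.34). A further list of 25 mesoderm and endoderm transcription factors had a median level of 2.41 and 2.22 and a median change of −0.15, with the interval below 0 in 12 and above 0 in 2. Lhx1 had the most (7.37 and 5.72) and Sall1 the least (0.401 and 0.437). Secreted signals of gastrulation and their antagonists (20 genes) had a median level of 2.01 and 1.71. Of the 17 with 200 reads, 11 had an interval below 0 and 0 above it, with Nog, a BMP antagonist, highest in level (5.51 and 3.85) and Tdgf1, a Nodal co-receptor, lowest (0.250 and 0.298). Receptors and signal transducers (16 genes) were mostly without the mark, with a median level of 0.458 and 0.509, from Bmpr1a (0.265 and 0.333) to Lef1 (2.43 and 2.34). Their interval lay below 0 in 1 and above 0 in 5 of 15 (12.9% and 17.8% of all protein-coding genes with 200 reads). The gene below 0 was Fgfr2 (−0.04, −0.06 to −0.02), whose annotated bounds gave a window of 1511 tiles.

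Genes of the Polycomb complexes and H3K27 demethylases (27 genes in 1 list) had a median H3K27me3 level of 0.335 and 0.408. At least 2 times expected in both genotypes were 3 of the 27, beside 8.45% of all protein-coding genes, so this count does not set the list apart. Bmi1, a subunit of Polycomb repressive complex 1, had the most, with 1077 and 499 reads (4.79 and 2.83, change −0.76, −0.91 to −0.60), and Kdm6a, an H3K27 demethylase, the least (0.100 and 0.156, change 0.65, 0.31 to 0.99). Pluripotency markers (16 genes) had a median level of 0.555 and 0.571, with Dppa3 highest (3.5 and 2.57) and Dppa5a lowest (0.230 and 0.205). Trophoblast markers (7 genes) had 0.984 and 1.09, from Prl3d1 (0.320 and 0.554) to Ascl2 (3.84 and 2.68). Fibroblast markers (8 genes), listed because the methods name feeder cells, had 1.39 and 1.52, from Col3a1 (0.661 and 0.706) to Col1a1 (2.97 and 2.54). Housekeeping genes (12 genes) had 0.202 and 0.323, from Pgk1 (0.156 and 0.141) to Rpl13a (0.411 and 0.478). Levels of these marks do not measure expression, so the markers do not show which cells were present.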
